A study of Mus musculus with 12 samples.

Results

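The collagen chain genes were the 44 genes whose symbol is Col, a number, a and a number, out of 23923 genes measured by RNA-seq in the tibialis anterior, a fast-twitch muscle of the lower leg. They comprised 11 fibrillar, 6 basement membrane and 27 other collagens. Expression was given as FPKM, a fragment count divided by transcript length and by the number of mapped reads of the library, which allows levels to be set side by side between genes. A test was made for the 37 collagen genes that reached 0.1 FPKM in 6 or more of the 12 mice. The remaining 7 were given as values alone.

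The 12 mice were 6 weeks old and of mixed C57BL6/J;129S1/SvImJ strain, with 1 library per mouse. The 6 controls were Myf6 cre/+; Smyd1 flox/+ and the 6 conditional knockouts (Smyd1 CKO) were Myf6 cre/+; Smyd1 flox/-, so that controls also carried the Cre allele and kept 1 wild-type Smyd1 allele. Per the study's methods, all mice additionally carried a YFP reporter at Rosa26. Cre was expressed from the Myf6 locus, which is active in skeletal myofibers, so the floxed allele was to be removed in myofibers, while the null allele of Smyd1 CKO was present in all of their cells. SMYD1 is a lysine methyltransferase of striated muscle. The question put to the data here was whether the levels of the collagen chains differed between Smyd1 CKO and control, and how far this rested on control 1, whose collagen values stood apart.

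Collagens are secreted proteins built from 3 chains wound into a triple helix, in which glycine recurs at 1 position of every 3. Fibrillar collagens (types I, III and V in muscle) form the tension-bearing fibrils of the connective tissue around fibers and bundles. Type IV collagen forms the sheet of the basement membrane on each myofiber and capillary. Type VI collagen forms fine microfibrils that tie this sheet to the fibrils, and fibril-associated collagens decorate the fibril surface. In muscle most collagen mRNA is made by fibroblasts rather than by myofibers.

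The repeat can be read from the coding sequences, and its longest unbroken run sets the fibrillar class apart from the others. In the GENCODE mouse release M21 coding sequences, found for 44 of 44 genes, the longest run of unbroken Gly-X-Y triplets had a median of 338 triplets in the 11 fibrillar genes. It was 339 in Col1a2 and 344 in Col3a1, but 216 in Col24a1 and 217 in Col27a1. In the basement membrane genes, whose repeat is broken many times, it lay between 39 and 66, and in Col8a1 it was 61. Among 15066 other coding genes of at least 300 codons the median was 2 triplets and the highest 81, and 8 genes had 30 or more. The first 12 codons of the longest run are given for 5 genes on which the results turn, with every glycine codon in capitals.
Col1a1: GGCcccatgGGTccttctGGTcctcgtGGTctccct
Col1a2: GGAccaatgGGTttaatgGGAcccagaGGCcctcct
Col3a1: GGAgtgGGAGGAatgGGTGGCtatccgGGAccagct
Col24a1: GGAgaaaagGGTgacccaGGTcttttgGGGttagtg
Col8a1: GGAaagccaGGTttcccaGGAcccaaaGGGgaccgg
In all 5 stretches a glycine codon opened every triplet, which follows from how the run was chosen, and in Col3a1 glycine also stood at other positions of the repeat.

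Smyd1 itself, the targeted gene, did not separate the groups. Its FPKM lay between 32.95 and 47.13 in controls (37.4 ± 5.64, SD, n = 6) and between 27.8 and 39.94 in Smyd1 CKO (34.1 ± 4.37, n = 6), a log2 fold change of -0.13 (SE 0.12, limma adjusted P = 0.545). One FPKM for the whole gene also covers exons that are not deleted, and which exons were floxed is not given in the sources used here, so this value does not check the genotype labels. The tissue label was met by the myofiber genes Acta1, Ckm and Myh4, which had at least 2482 FPKM in every mouse, while the epidermal keratins Krt5 and Krt14 were at or near 0. Of the other epidermal markers, Krt10 reached 0.225 FPKM and Dsp reached 1.05 FPKM, both in Smyd1 CKO 6.

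Control 1 stood apart among the controls. It was the highest control in 27 of the 37 collagen genes tested (73.0%), against 44.7% of all 12695 genes tested. This held for 10 of 11 fibrillar, 4 of 5 basement membrane and 13 of 21 other collagens. Summed over the 44 genes, control 1 had 813 FPKM, the other 5 controls 239 to 286, and Smyd1 CKO 282 to 521. The marker genes of fibroblasts (Pdgfra, Dpt, Cd34, Clec3b, Pi16 and Gsn) were likewise highest in control 1 when summed, with 247 FPKM there, 66.1 to 109 in the other controls and 133 to 161 in Smyd1 CKO. Its summed markers of myofibers, tendon, pericytes and smooth muscle (87.5 against 49.4 to 69.4 FPKM), macrophages, blood and adipocytes also exceeded every other control. Those of endothelium, Schwann cells, epidermis, and cartilage and bone did not. The FPKM of all genes totaled 156610 in control 1, against 110124 to 133316 in the other controls. Fewer or more cells of a type and less or more RNA per cell cannot be told apart in whole muscle. The main comparisons are therefore given with and without control 1. It was singled out by these same values, so leaving it out raises the fold change of each gene in which it was the highest control. The P-values without control 1 are therefore a description of how far the results rest on it, not a separate test. In addition most genes of the whole table shifted upwards. The median log2 fold change (Smyd1 CKO over control) of all genes tested was 0.18 with 12 mice and 0.22 without control 1. After each library was divided by its median ratio to the other libraries, the median was 0.01. Values on that scale are given for the counts, for class medians and for some of the single genes. The limma P-values set the difference between groups against the spread within groups. With 1 library per mouse, differences between mice and between libraries cannot be told apart in that spread.

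**Figure D1:**
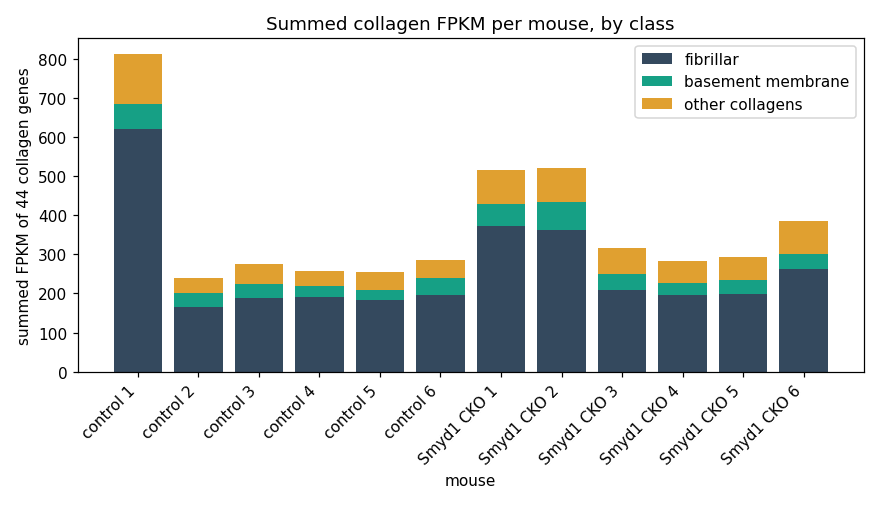
Summed FPKM of the 44 collagen genes (vertical axis) in each of the 12 mice (horizontal axis), stacked by class. Control 1 reached 813 FPKM, the other controls 239 to 286, and Smyd1 CKO 1 and 2 reached 516 and 521.

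Collagen levels spanned several orders of magnitude in control muscle. Col3a1 had the highest mean control level (101 FPKM), followed by Col1a1 (68.2 FPKM) and Col1a2 (66.0 FPKM). These 3 fibrillar genes together made up 61.9% to 70.3% of all collagen FPKM in controls and 58.4% to 65.5% in Smyd1 CKO. The next genes by mean control level were Col4a1 (22.2 FPKM), Col6a2 (16.7), Col4a2 (15.4), Col6a1 (13.4) and Col5a2 (10.97). The cartilage collagen Col2a1 was the lowest of the genes tested, with a mean control level of 0.12 FPKM.

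With all 12 mice, 2 of the 37 collagen genes rose in Smyd1 CKO at an adjusted P below 0.05, Col8a1 and Col24a1, and none fell. With any single mouse other than control 1 left out, the count was 0 to 2. Over all genes tested, 2.02% were called higher and 0.268% lower by the same rule. At an unadjusted P below 0.05, 7 collagens were higher (Col4a3, Col4a5, Col8a1, Col19a1, Col22a1, Col24a1 and Col28a1) and 0 lower, where 18.1% and 1.76% of all genes were. The collagen count at this threshold, 7 of 37, was thus close to the share among all genes. The log2 fold change was above 0 in 32 of the 37 (86.5%), against 77.9% of all genes tested. On the median-ratio scale it was above 0 in 28 of the 37 (75.7%), against 51.2%. Without that scaling the median of the collagens was 0.36, against 0.18 over all genes. Col19a1 was the 1 collagen in which every Smyd1 CKO value lay above every control value in unscaled FPKM, a pattern seen in 2.23% of all genes.

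Without control 1, 12 collagens were higher at an adjusted P below 0.05 (Col3a1, Col4a5, Col5a1, Col5a2, Col6a1, Col6a2, Col6a3, Col8a1, Col14a1, Col19a1, Col22a1 and Col24a1) and 0 lower, against 8.4% and 0.544% of all genes. At an unadjusted P below 0.05, 18 of the 37 were higher and 0 lower, against 27% and 1.8%. The median of the collagens was 0.51, that of all genes 0.22. In 7 of the 37 every unscaled Smyd1 CKO value lay above each of the 5 controls, against 6.1% of all genes. Both genes called with all 12 mice were among the 12. Col3a1, Col5a1, Col5a2, Col6a1, Col6a2, Col6a3, Col14a1 and Col22a1 were genes in which control 1 was marked as an outlying high value (flagged results below).

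On the median-ratio scale the counts were smaller. With 12 mice Col8a1 alone was higher at an adjusted P below 0.05 (0.764% of all genes higher, 0.709% lower), and 5 collagens were higher and 1 lower, Col9a1, at an unadjusted P below 0.05 (6.62% and 7.44%). With that scaling and control 1 left out together, Col8a1 again was the only collagen past the adjusted threshold (1.42% of all genes higher, 1.46% lower), while 13 were higher and 0 lower at an unadjusted P below 0.05 (8.59% and 9.1%). The median of the collagens was 0.20 with all 12 mice and 0.30 without control 1, with all genes at 0.01.

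**Figure D2:**
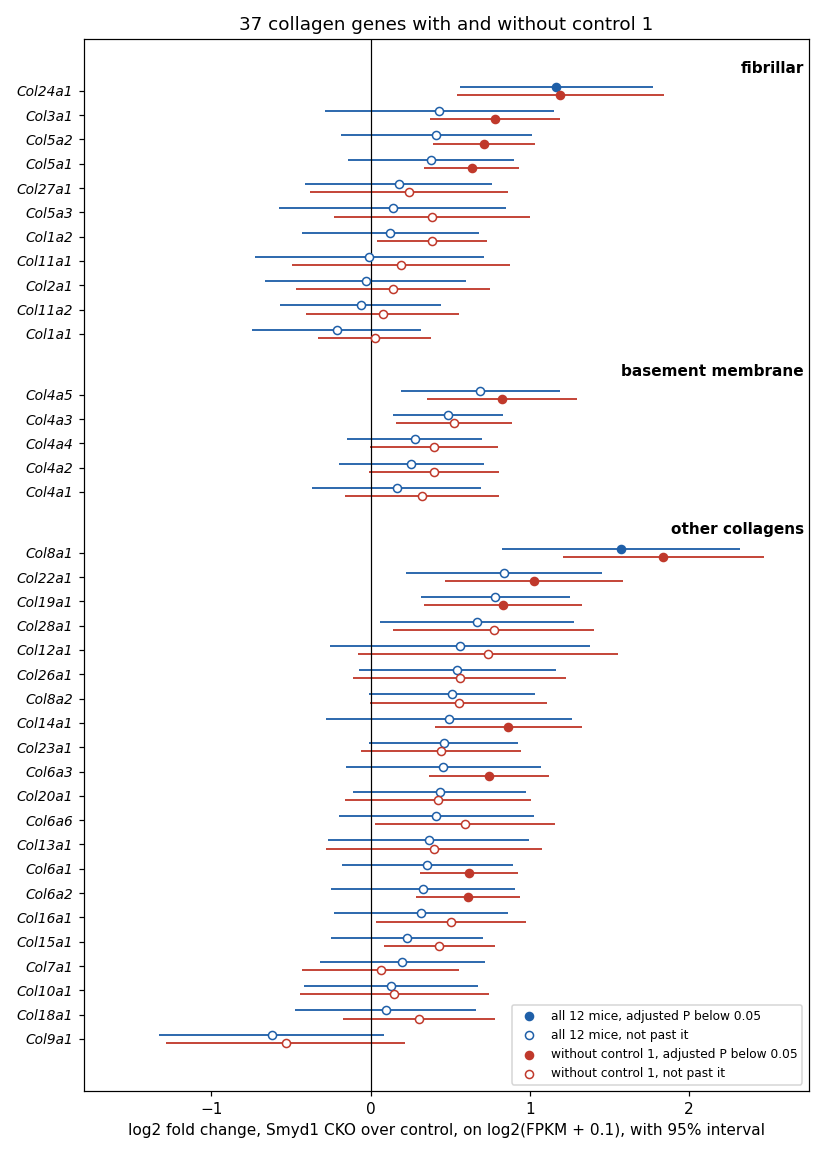
Log2 fold change of Smyd1 CKO over control on log2(FPKM + 0.1) (horizontal axis) with its 95% interval for the 37 collagen genes tested, grouped by class, with all 12 mice in blue and without control 1 in red. Filled circles mark an adjusted P below 0.05, reached by 2 genes with all 12 mice and by 12 without control 1.

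**Figure D3:**
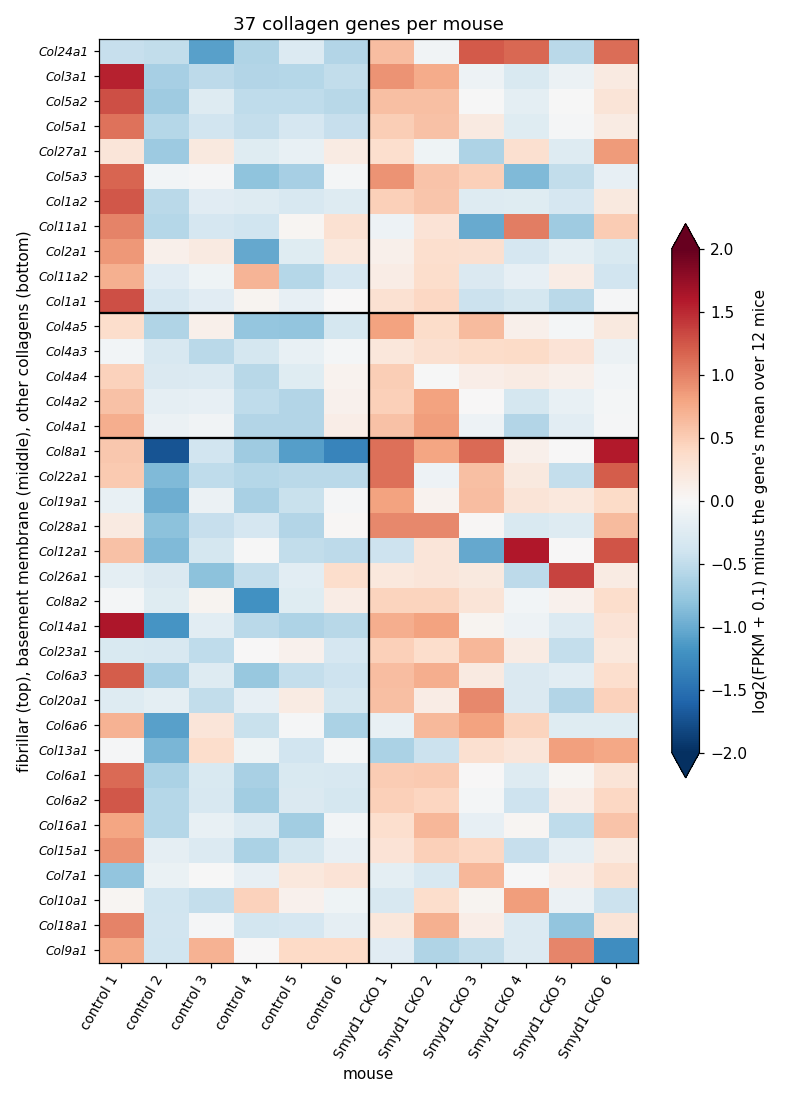
Log2(FPKM + 0.1) of the 37 collagen genes tested (rows) in each mouse (columns), minus the gene's mean over the 12 mice, with red above and blue below that mean. The column of control 1 is red for most fibrillar and type VI genes, unlike the other 5 controls.

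Among the fibrillar genes, the major type I and III chains did not pass with all 12 mice. Col1a1, the alpha 1 chain of type I collagen, ranged from 45.9 to 143 FPKM in controls (median 55.3) and from 40.0 to 77.2 in Smyd1 CKO (median 51.2). Its log2 fold change was -0.21 (SE 0.25, adjusted P = 0.656), and 0.03 (SE 0.17, adjusted P = 0.927) without control 1. The groups overlapped throughout, with control 1 far above every other mouse. Col1a2, the alpha 2 chain, ranged from 42.7 to 147 FPKM in controls (median 51.7) and from 49.3 to 91.3 in Smyd1 CKO (median 61.5). Col1a2 had a log2 fold change of 0.12 (SE 0.26, adjusted P = 0.814), or 0.39 (SE 0.16, adjusted P = 0.136) without control 1, and on the median-ratio scale it was -0.06. Here too control 1 was the highest mouse, and 3 Smyd1 CKO mice exceeded the other 5 controls.

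Col3a1, the chain of type III collagen, which forms thin and pliable fibrils, ranged from 60.8 to 282 FPKM in controls (median 66.3) and from 78.6 to 180 in Smyd1 CKO (median 99.6). In unscaled FPKM all 6 Smyd1 CKO mice lay above controls 2 to 6 and below control 1. The log2 fold change was 0.43 with all 12 mice (SE 0.34, adjusted P = 0.478) and 0.78 without control 1 (SE 0.19, adjusted P = 0.0228). On the median-ratio scale without control 1 that of Col3a1 was 0.55 (adjusted P = 0.134). Col5a1 and Col5a2, chains of type V collagen, which regulates how fibrils start and how thick they grow, followed the same pattern. Col5a1 ranged from 3.35 to 10.7 FPKM in controls (median 3.70) and from 4.22 to 7.57 in Smyd1 CKO (median 5.62). Col5a2 ranged from 6.69 to 27.0 FPKM in controls (median 7.73) and from 9.62 to 16.7 in Smyd1 CKO (median 12.03). In both genes all Smyd1 CKO mice again fell between controls 2 to 6 and control 1. Their log2 fold changes were 0.38 and 0.41 with all 12 mice (adjusted P = 0.390 and 0.418), and 0.64 and 0.71 without control 1 (adjusted P = 0.0148 and 0.0122). On the median-ratio scale without control 1 they were 0.41 and 0.48 (adjusted P = 0.122 and 0.0768).

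Col24a1, a minor fibrillar collagen best known from developing bone and cornea, was the fibrillar gene called with all 12 mice. It ranged from 0.401 to 0.785 FPKM in controls (median 0.632) and from 0.632 to 2.39 in Smyd1 CKO (median 1.88). Control 1, at 0.674 FPKM, was not apart from the other controls for this gene. In Smyd1 CKO 5 mice lay above every control, and Smyd1 CKO 5 lay among them. The log2 fold change was 1.17 (SE 0.28, adjusted P = 0.0455) with all 12 mice and 1.19 (SE 0.30, adjusted P = 0.0272) without control 1. It was 0.996 on the median-ratio scale, where the adjusted P was 0.112. In Smyd1 CKO 4 and 6 the bone marker Ibsp and the collagenase gene Mmp13 were raised over the other mice (6.15 and 2.41 FPKM for Ibsp, 5.03 and 3.28 for Mmp13, against at most 0.654 and 0.773 in the other 10). The bone markers Sp7 (0.0524 and 0 FPKM) and Bglap (0.125 and 0 FPKM) were not raised in these mice. Col24a1 was at 1.53, 0.911, 2.39, 2.25, 0.632 and 2.22 FPKM in Smyd1 CKO 1 to 6. In Smyd1 CKO 3, the highest, Ibsp was at 0 and Mmp13 at 0.0798 FPKM. Without Smyd1 CKO 4 and 6 the log2 fold change of Col24a1 was 0.89 with an unadjusted P of 0.0106 from limma and an adjusted P of 0.193. A link between Col24a1 and these marker genes was not tested. The remaining fibrillar genes tested (Col2a1, Col5a3, Col11a1, Col11a2 and Col27a1) had log2 fold changes between -0.06 and 0.18 with all 12 mice and between 0.08 and 0.39 without control 1, and none passed. Of these, Col2a1, Col11a1 and Col11a2 were below 0 with all 12 mice and above 0 without control 1, and Col5a3 was -0.04 on the median-ratio scale. For the 11 fibrillar genes the median was 0.14 with all 12 mice, 0.39 without control 1 and -0.04 on the median-ratio scale.

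**Figure D4:**
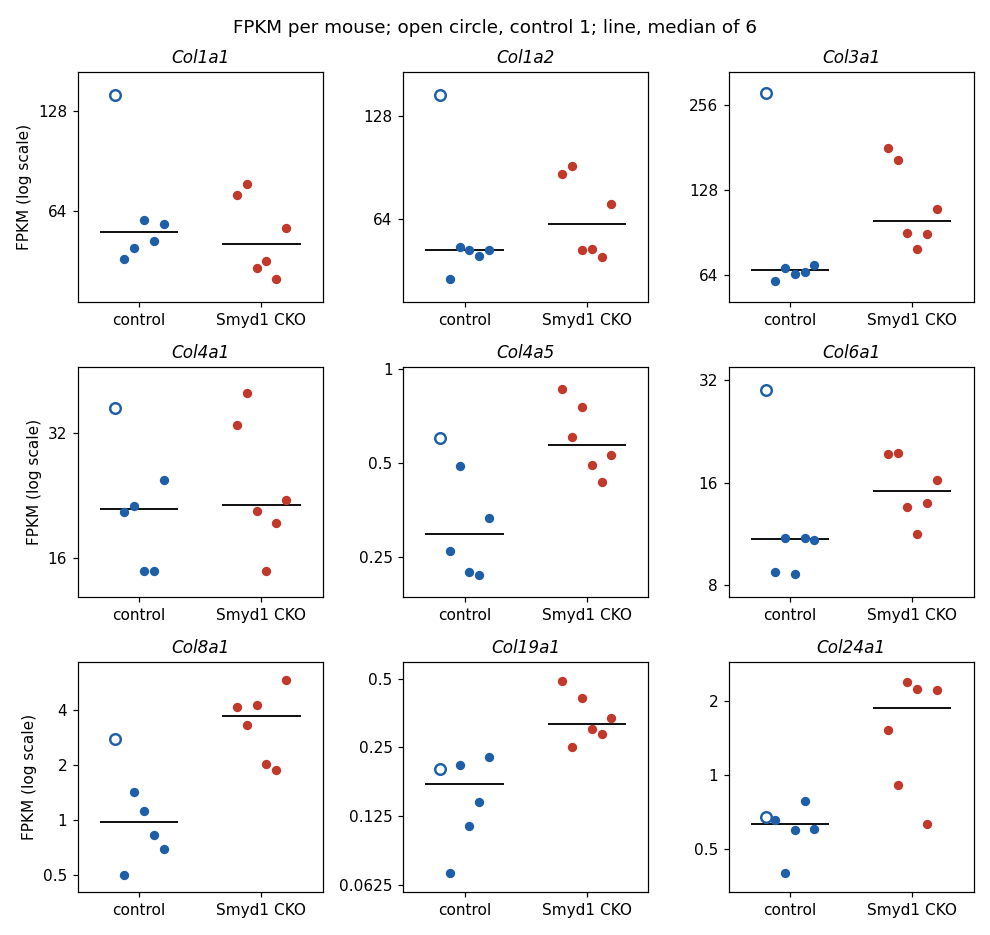
FPKM of 9 collagen genes in each mouse, on log vertical axes that differ between panels, for controls in blue and Smyd1 CKO in red, with control 1 as an open circle and the median of 6 mice as a line. In the panels of Col1a1, Col1a2, Col3a1 and Col6a1 control 1 lies above every other mouse, while for Col24a1 it lies among the controls.

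The balance between chains was measured as a ratio within each mouse, which is unaffected by the scaling of a library. Type I collagen is mainly assembled from 2 alpha 1 chains and 1 alpha 2 chain. The Col1a1 to Col1a2 ratio was 0.972, 1.08, 0.935, 1.16, 1.05 and 1.13 in controls 1 to 6 and 0.831, 0.846, 0.834, 0.868, 0.811 and 0.804 in Smyd1 CKO 1 to 6. Every Smyd1 CKO value lay below every control value, control 1 included. The mean was 1.05 ± 0.0890 (SD, n = 6) in controls and 0.832 ± 0.0234 (n = 6) in Smyd1 CKO, and the difference of the log2 ratios was -0.34. An exact two-sided permutation test over the 924 assignments of mice gave P = 0.00217, the smallest it allows, and 0.00649 after Benjamini-Hochberg adjustment over the 3 ratios tested. Without control 1 the difference was -0.36 (exact permutation P = 0.00217, the smallest over 462 assignments, adjusted 0.00325). Neither gene alone passed a threshold with all 12 mice, and the ratio is of mRNA levels, not of chains.

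Transcript GC content differs between these genes (58.9% in Col1a1, 55.7% in Col1a2 and 52.5% in Col3a1), and the median log2 fold change of all genes tested lay between 0.14 and 0.19 across bins of 5 percentage points of GC content. After a correction of each library for transcript length and GC content the difference of the Col1a1 to Col1a2 ratio was -0.33, with the same exact permutation P = 0.00217.

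The Col3a1 to Col1a1 ratio was 1.98, 1.33, 1.36, 1.07, 1.25 and 1.18 in controls 1 to 6 and 2.51, 2.104, 2.09, 1.73, 2.23 and 1.92 in Smyd1 CKO 1 to 6. It averaged 1.36 ± 0.319 (SD, n = 6) in controls and 2.096 ± 0.265 (n = 6) in Smyd1 CKO, a log2 difference of 0.64 (exact permutation P = 0.00649, adjusted 0.00974). Control 1 was the only control to reach the range of Smyd1 CKO, and without it the groups did not overlap (log2 difference 0.76, exact permutation P = 0.00217, adjusted 0.00325). Col1a1 and Col1a2 together held 35.6% to 43.3% of the collagen FPKM in controls and 29.98% to 34.7% in Smyd1 CKO, and Col3a1 held 24.1% to 25.5% in controls 2 to 6, 34.7% in control 1 and 27.9% to 34.9% in Smyd1 CKO.

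**Figure D5:**
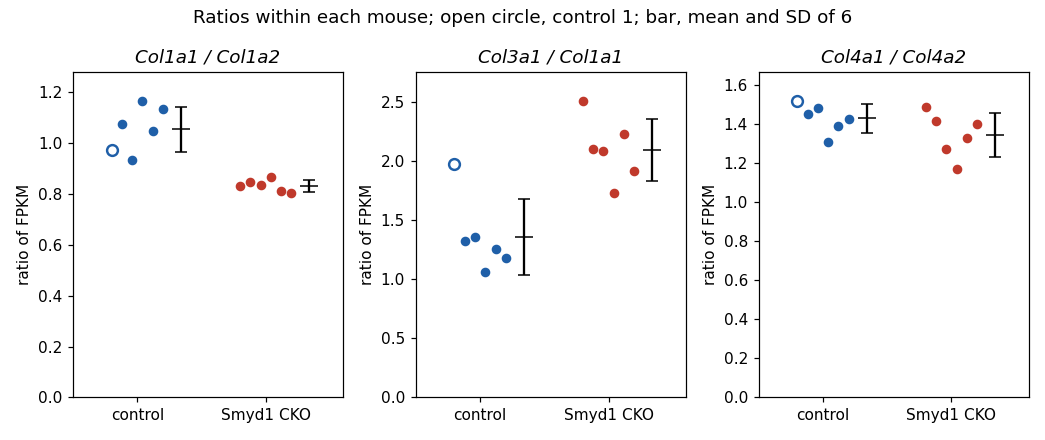
Ratio of FPKM (vertical axis, from 0) of Col1a1 to Col1a2, Col3a1 to Col1a1 and Col4a1 to Col4a2 in each mouse, with the mean and SD of 6 mice beside each group and control 1 as an open circle. For Col1a1 to Col1a2 the controls lie at 0.935 to 1.16 and Smyd1 CKO at 0.804 to 0.868.

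Of the 5 basement membrane genes tested, none passed the adjusted threshold with all 12 mice, and Col4a5 passed without control 1. Col4a1 and Col4a2 encode the chains of the common type IV collagen. Col4a1 ranged from 14.9 to 36.9 FPKM in controls (median 21.0) and from 14.8 to 40.1 in Smyd1 CKO (median 21.4), so the groups overlapped almost fully. Col4a2 ranged from 10.7 to 24.4 FPKM in controls (median 14.3) and from 12.7 to 28.3 in Smyd1 CKO (median 16.04). Control 1 and Smyd1 CKO 1 and 2 were the 3 highest mice for both genes. Log2 fold changes were 0.17 for Col4a1 (adjusted P = 0.732) and 0.25 for Col4a2 (adjusted P = 0.512), and 0.33 and 0.40 without control 1 (adjusted P = 0.352 and 0.182). On the median-ratio scale that of Col4a1 was -0.02. The Col4a1 to Col4a2 ratio was 1.31 to 1.51 in controls and 1.17 to 1.49 in Smyd1 CKO, a log2 difference of -0.09 (exact permutation P = 0.160, adjusted 0.160), or -0.07 without control 1 (exact permutation P = 0.284). These 2 genes overlap on opposite strands in the annotation, and whether reads were counted by strand is not given in the sources used here. Col4a3, Col5a1, Col6a6, Col15a1 and Col22a1 likewise share exonic bases with noncoding genes of the other strand. Col10a1 and the untested Col9a3 share them with the protein-coding genes Nt5dc1 and Tcfl5 of the other strand.

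Col4a3, Col4a4 and Col4a5 encode the chains of the type IV network known from kidney and neuromuscular synapse, and stood far lower. Col4a3 ranged from 0.298 to 0.468 FPKM in controls (median 0.393) and from 0.437 to 0.660 in Smyd1 CKO (median 0.613), where 5 of 6 mice lay above every control. Col4a3 thus had a log2 fold change of 0.49 (SE 0.16, adjusted P = 0.125), and 0.52 without control 1. Col4a5 ranged from 0.219 to 0.6002 FPKM in controls (median 0.297) and from 0.435 to 0.861 in Smyd1 CKO (median 0.569). Control 1 was the highest control for Col4a5, and 3 Smyd1 CKO mice exceeded it. The log2 fold change was 0.69 (SE 0.23, adjusted P = 0.130) with all 12 mice and 0.83 (SE 0.22, adjusted P = 0.0335) without control 1. Col4a4 had a log2 fold change of 0.28 (adjusted P = 0.443), or 0.40 (adjusted P = 0.179) without control 1.

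The type VI genes were among the most abundant of the other collagens. Col6a1, Col6a2 and Col6a3 encode the chains of its common form. Col6a1 ranged from 8.65 to 29.9 FPKM in controls (median 10.9) and from 11.4 to 19.6 in Smyd1 CKO (median 15.2). Col6a2 ranged from 10.2 to 39.2 FPKM in controls (median 13.1) and from 12.4 to 23.0 in Smyd1 CKO (median 20.1). Col6a3 ranged from 5.76 to 23.0 FPKM in controls (median 7.18) and from 8.02 to 16.3 in Smyd1 CKO (median 11.8). In all 3 genes control 1 was above every Smyd1 CKO mouse, and 5 or 6 of the 6 Smyd1 CKO mice were above the other controls. Their log2 fold changes lay between 0.33 and 0.46 with all 12 mice, with adjusted P-values between 0.383 and 0.5003. Without control 1 they were 0.62, 0.61 and 0.74, with adjusted P-values of 0.0183, 0.0249 and 0.0206 in the same order. On the median-ratio scale without control 1 they were 0.39, 0.38 and 0.51 (adjusted P = 0.1425, 0.177 and 0.123). Col6a6, an alternative chain, had 0.41 (adjusted P = 0.426) and 0.59 (adjusted P = 0.154).

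Among the fibril-associated collagens, Col19a1 and Col22a1 were higher at an unadjusted P below 0.05 with all 12 mice. Col19a1, first isolated from rhabdomyosarcoma cells, ranged from 0.0704 to 0.228 FPKM in controls (median 0.173) and from 0.252 to 0.486 in Smyd1 CKO (median 0.318). The groups did not overlap in unscaled FPKM. Its log2 fold change was 0.78 (SE 0.22, adjusted P = 0.0762), and 0.83 (SE 0.23, adjusted P = 0.0396) without control 1. On the median-ratio scale the log2 fold change of Col19a1 was 0.66 (adjusted P = 0.143), and 0.68 (adjusted P = 0.117) with control 1 left out as well. Col22a1, which lies at the myotendinous junction, ranged from 1.12 to 3.12 FPKM in controls (median 1.45) and from 1.52 to 5.07 in Smyd1 CKO (median 2.88). All Smyd1 CKO mice were above controls 2 to 6, and 3 were above control 1. For Col22a1 the log2 fold change was 0.84 (SE 0.29, adjusted P = 0.133) with all 12 mice and 1.03 (SE 0.26, adjusted P = 0.0272) without control 1. On the median-ratio scale without control 1 it was 0.81 (adjusted P = 0.101).

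Col14a1, a fibril-associated collagen of loose connective tissue, was at 7.89 FPKM in control 1, between 1.06 and 2.17 in the other controls and between 2.06 and 4.48 in Smyd1 CKO (median 2.85). Without control 1 its log2 fold change was 0.87 (SE 0.22, adjusted P = 0.0245), against 0.49 (SE 0.36, adjusted P = 0.452) with it. Col16a1 had log2 fold changes of 0.32 (adjusted P = 0.497) with all 12 mice and 0.51 (adjusted P = 0.149) without control 1. Col12a1, a fibril-associated collagen of tendon and muscle, was chosen for mention after its values were seen. It was at 6.76 and 5.31 FPKM in Smyd1 CKO 4 and 6, the mice with high Ibsp and Mmp13, and between 1.01 and 2.55 in the other 4 Smyd1 CKO mice. Its log2 fold change was 0.56 with all 12 mice (adjusted P = 0.416), 0.74 without control 1 (adjusted P = 0.213) and -0.01 without these 2 mice. Col9a1, which is a cartilage chain, ranged from 0.0798 to 0.299 FPKM in controls and from 0 to 0.364 in Smyd1 CKO, with a log2 fold change of -0.62 (adjusted P = 0.307), the lowest of the 37, and -0.53 (adjusted P = 0.327) without control 1. Col20a1, at 0.157 to 0.646 FPKM over all mice, had 0.43 and 0.42 with and without control 1.

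Col8a1, the alpha 1 chain of type VIII collagen, a short-chain network collagen of vessel walls and of the membrane beneath the corneal endothelium, had the largest log2 fold change of the 37. It was at 2.79 FPKM in control 1 and 0.5, 1.42, 1.12, 0.825 and 0.694 in controls 2 to 6, and at 4.17, 3.33, 4.28, 2.04, 1.90 and 5.91 in Smyd1 CKO 1 to 6. Every Smyd1 CKO mouse lay above controls 2 to 6, and 4 lay above control 1. The log2 fold change was 1.57 (SE 0.35, adjusted P = 0.0318) with all 12 mice, 1.84 (SE 0.30, adjusted P = 0.00330) without control 1, and 1.40 (adjusted P = 0.0407) on the median-ratio scale. Col8a2, the partner chain, stood lower, at 0.0197 to 0.208 FPKM in controls and 0.166 to 0.278 in Smyd1 CKO, with a log2 fold change of 0.51 (adjusted P = 0.259), or 0.55 (adjusted P = 0.175) without control 1. Col10a1, the chain of hypertrophic cartilage, had 0.13 (adjusted P = 0.802) and 0.15 (adjusted P = 0.741).

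The multiplexin Col15a1, found at basement membranes of muscle and capillaries, was at 12.1 FPKM in control 1, between 4.12 and 5.76 in the other controls and between 4.66 and 9.004 in Smyd1 CKO (median 7.56). Its log2 fold change was 0.23 (adjusted P = 0.581) with all 12 mice and 0.43 (adjusted P = 0.102) without control 1. Col18a1, the other multiplexin, had 0.09 and 0.30, and -0.07 on the median-ratio scale with all 12 mice. Col13a1, a transmembrane collagen of the neuromuscular junction, ranged from 0.0568 to 0.278 FPKM in controls (median 0.181) and from 0.0902 to 0.421 in Smyd1 CKO (median 0.259), with a log2 fold change of 0.36 (adjusted P = 0.497), or 0.40 (adjusted P = 0.423) without control 1. Col28a1 ranged from 0.0585 to 0.219 FPKM in controls (median 0.113) and from 0.127 to 0.445 in Smyd1 CKO (median 0.259). The groups overlapped, and the log2 fold change of Col28a1 was 0.67 (SE 0.29, adjusted P = 0.210), or 0.77 without control 1. Col7a1, Col23a1 and Col26a1 had log2 fold changes between 0.20 and 0.55 with all 12 mice and between 0.06 and 0.56 without control 1, and none passed in either comparison. Over the 21 other collagens tested the median was 0.43 with all 12 mice, 0.56 without control 1 and 0.27 on the median-ratio scale.

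The 7 genes that were too low to test were Col4a6, Col6a4, Col6a5, Col9a2, Col9a3, Col17a1 and Col25a1. Their mean level lay below 0.1 FPKM in both groups. Col25a1, a transmembrane collagen of muscle that is needed for motor innervation in development, ranged from 0.0122 to 0.101 FPKM in controls and from 0.0253 to 0.198 in Smyd1 CKO.

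Markers of other cells in the muscle were set beside these values. Without control 1 all 6 fibroblast markers passed the adjusted threshold (8.4% of all genes), with a median log2 fold change of 0.88, while with all 12 mice none did and the median was 0.57. On the median-ratio scale without control 1, 3 of 6 passed (1.42% of all genes higher) and the median of the 6 was 0.65. All 8 tendon markers had log2 fold changes below 0 with 12 mice (median -0.46), where 77.9% of all genes were above 0. None passed the adjusted threshold, and 3 (Mkx, Cilp2 and Kera) were lower at an unadjusted P below 0.05, against 1.76% of all genes. Without control 1 the median of the 8 was -0.32, Thbs4 was above 0 (0.12), and again none passed the adjusted threshold. With median-ratio scaling as well, 0 of the 8 were above 0. Their sum was 62.6 FPKM in control 1, 19.5 to 34.2 in the other controls and 17.1 to 36.3 in Smyd1 CKO. None of the endothelial or of the pericyte and smooth muscle markers (6 each) passed the adjusted threshold with or without control 1. The 6 macrophage markers present in the files summed to 42.2 FPKM in control 1, 11.3 to 19.0 in the other controls and 15.5 to 24.2 in Smyd1 CKO. Cd163 was the only one of them to pass, without control 1. Adipocyte markers summed to 3.03 FPKM in control 1, 1 to 1.497 in the other controls and 2.62 to 7.31 in Smyd1 CKO, with Retn past the adjusted threshold among the 4 tested (log2 fold change 1.80, adjusted P = 0.0322). Without control 1, Retn (1.98, adjusted P = 0.0102) and Cfd (1.63, adjusted P = 0.00878) passed. Retn was at 0 in controls 2, 3, 5 and 6 and at 0.147 to 1.23 FPKM in Smyd1 CKO. It thus met the filter for testing only through its Smyd1 CKO values. Its fold change rests on the 0.1 FPKM added before the log, so no conclusion is drawn from its test. Cartilage and bone markers summed to 0.129 to 1.13 FPKM in controls and 0.175 to 6.81 in Smyd1 CKO, and Matn1, which defines cartilage, was at 0 in all 12 mice. The Schwann cell, blood and epidermal markers had no call at the adjusted threshold in either comparison. Of the 6 myofiber genes none passed with all 12 mice, and Myh4 was higher without control 1 (log2 fold change 0.76, adjusted P = 0.0393). The other 5, Acta1, Ckm, Tnnt3, Mylpf and Actn3, had log2 fold changes below 0 in both comparisons, and the median of the 6 was -0.27 with all 12 mice and -0.19 without control 1. The part of these cells in the collagen values was not tested.

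The genes that build and bind collagen, and those that break it down or inhibit this, were counted in the same way. Of 64 such genes in the files, in 6 lists, 57 were tested. With all 12 mice 1 was higher at an adjusted P below 0.05 (2.02% of all genes), and 17 were higher and 1 lower at an unadjusted P below 0.05 (18.1% and 1.76%). Without control 1 the counts were 24 (8.4%), 36 (27%) and 1 (1.8%). With control 1 left out on the median-ratio scale, 10 were higher at an adjusted P below 0.05 (1.42%), and the median log2 fold change was 0.26. The median log2 fold change was 0.34 with all 12 mice and 0.48 without control 1. The gene called with all 12 mice was Itgb1, the beta 1 subunit shared by the collagen-binding integrins, which ranged from 30.9 to 51.4 FPKM in controls (median 33.6) and from 51.4 to 72.1 in Smyd1 CKO (median 56.8). The highest control, control 1, and the lowest Smyd1 CKO mouse, Smyd1 CKO 4, stood side by side at 51.41 and 51.42 FPKM. For Itgb1 the log2 fold change was 0.71 (adjusted P = 0.0133), and 0.81 (adjusted P = 0.00146) without control 1. Itga11, the alpha 11 integrin subunit of fibroblasts, had 0.57 (adjusted P = 0.189) and 0.72 (adjusted P = 0.0469).

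Among the genes for chain modification and folding, 0 of 19 passed the adjusted threshold with all 12 mice and 8 without control 1, against 2.02% and 8.4% of all genes for this and the lists that follow. On the median-ratio scale without control 1, where the share of all genes called higher was 1.42%, 2 of these 19 passed. On that scale 2 of 8 receptors, 1 of 7 genes for trimming and 0 of 5 crosslinking enzymes passed. So did 5 of 11 fibril-binding genes and 0 of 7 genes of breakdown and its inhibitors. P4hb, a subunit of the prolyl hydroxylase that stabilizes the helix, had log2 fold changes of 0.45 (adjusted P = 0.137) and 0.59 (adjusted P = 0.00700) in these comparisons. Crtap, a part of the prolyl 3-hydroxylation complex, had 0.76 (adjusted P = 0.153) and 1.03 (adjusted P = 0.00627). Of 7 genes for trimming of procollagen, 0 and 3 passed. Bmp1, the C-propeptidase, had 0.58 and 0.74, and Adamts2, the N-propeptidase, had 0.45 and 0.66, with adjusted P-values of 0.0185 and 0.00792 without control 1. Of 5 crosslinking enzymes 0 and 1 passed, with Loxl1 at 0.67 and 0.95 and Loxl2 at 0.32 and 0.60. Among 11 fibril-binding proteoglycans and glycoproteins 0 and 6 passed. Biglycan (Bgn) had 0.69 (adjusted P = 0.144) and 0.91 (adjusted P = 0.00732), while keratocan (Kera), also counted among the tendon markers, had -0.69 (adjusted P = 0.168) and -0.52 (adjusted P = 0.171). Of 7 genes tested in the list of collagen breakdown and its inhibitors 0 and 2 passed. These were Mmp2 and Timp2, and 4 of the 7 were Timp1 to Timp4, which inhibit metalloproteases. The membrane-type collagenase Mmp14 had log2 fold changes of 0.65 and 0.72 and the gelatinase Mmp2 had 0.44 and 0.64, the latter with an adjusted P of 0.0211 without control 1.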

How the data were processed

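RNA was sequenced from the tibialis anterior of 12 mice, 6 controls and 6 Smyd1 CKO. Per the study's methods, ribosomal RNA was depleted (ScriptSeq Complete Gold), reads were aligned with at most 2 mismatches, reads mapping to several places were discarded, and Cufflinks gave the FPKM values deposited by the authors. The submitters' processing notes name TopHat2 2.0.10, Cufflinks 2.1.1 and mm9; the annotation is not given in the sources used here. The authors' differential test used counts, not analysed here. Of 23950 rows per file, 27 with a date in place of the symbol were left out.

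Groups were compared with limma 3.58.1 in R 4.3.3 on log2(FPKM + 0.1) with an intensity trend and Benjamini-Hochberg adjustment over 12695 genes. The 3 ratios had exact permutation tests. Triplets, GC content and transcript lengths came from GENCODE M21 (GRCm38), matched by symbol, and since the files rest on mm9 no coordinates are given. The fit was tested on simulated data. Depth in reads is unknown, so no counting interval is given, and low FPKM rest on few fragments. No libraries held identical values. Same-numbered mice did not pair (correlations of deviations -0.0861 to 0.164), so no block was used.

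The collagens, classes, partner and marker lists were chosen with earlier results of these data known. Named were collagens with an unadjusted P below 0.05 with or without control 1, the 3 most abundant per class, the ratio genes, Col13a1, Col22a1 and Col25a1, and the 2 partner genes of each list with the smallest P.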

Additional observations from a re-analysis of the deposited data

Results flagged for a closer look

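In 88 groups of 6 mice (the control and the Smyd1 CKO values of all 44 collagens) the sample at either end was compared with the spread of its group by Dixon's ratio on log2(FPKM + 0.1), which marks about 1 in 20 groups by chance. It marked 14, of which 12 were control 1 as the highest control. Genes of 1 library are not independent of each other, so these are not 12 separate observations. The 12 genes marked in control 1 were the fibrillar genes Col1a1 (142.8 FPKM, others 45.89 to 60.13), Col1a2 (146.9 FPKM, others 42.71 to 53.03), Col3a1 (281.9 FPKM, others 60.79 to 69.09), Col5a1 (10.68 FPKM, others 3.345 to 3.921) and Col5a2 (27.03 FPKM, others 6.691 to 9.168), and the type VI genes Col6a1 (29.94 FPKM, others 8.645 to 11.05), Col6a2 (39.2 FPKM, others 10.22 to 13.48) and Col6a3 (22.96 FPKM, others 5.76 to 8.171). The remaining genes were Col14a1 (7.891 FPKM, others 1.061 to 2.172), Col15a1 (12.07 FPKM, others 4.121 to 5.76), Col18a1 (2.195 FPKM, others 0.7849 to 1.033) and Col22a1 (3.125 FPKM, others 1.116 to 1.472). The basement membrane gene Col4a3 in Smyd1 CKO 6 was low (0.4371 FPKM, others 0.5774 to 0.6599). Col8a2 in control 4 was low as well (0.01969 FPKM, others 0.1332 to 0.2081).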

How the results depend on the processing

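The Col1a1 to Col1a2 and Col3a1 to Col1a1 ratios kept their direction and an exact permutation P below 0.05 under every alternative run. Over single mice left out, their log2 differences ran from -0.37 to -0.31 and from 0.58 to 0.76, and that of Col4a1 to Col4a2 from -0.12 to -0.05. With the replicate block (sign flips of same-numbered pairs) the last was -0.08919 with an exact P = 0.0312, the smallest that this test allows. Same-numbered mice did not pair, so nothing is drawn from this lower P.

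The count of collagens higher at an adjusted P below 0.05 (2) was 1 with a pseudocount of 1, a filter at 1 FPKM, median-ratio scaling, quantile normalization or the replicate block, 0 with no filter and 6 with sample weights. Of the alternatives chosen after seeing the data, it was 1 with median-ratio scaling and control 1 left out, 0 with CKO 4 and CKO 6 left out, and 1 with a length and GC correction (splines of 4 terms, 95.8% of genes matched). Over single mice left out it ran from 0 to 12, with 12 without control 1, and it was 0 without any one of controls 2, 4, 5 or 6 or of Smyd1 CKO 1, 3 or 6, and 1 without control 3 or Smyd1 CKO 4. No alternative gave a collagen that was lower at this threshold. At an unadjusted P below 0.05 the higher count (7) was 2 with the filter at 1 FPKM, 19 with sample weights, 13 with median-ratio scaling and control 1 left out, and 6 to 18 over single mice left out. The lower count (0) was 1 with median-ratio scaling, quantile normalization, sample weights or the length and GC correction, and 0 to 1 over single mice left out.

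All genes higher (257) came to 170 with no filter, 97 with median-ratio scaling, 101 with quantile normalization, 1400 with sample weights, 57 without CKO 4 and 6, 97 with the length and GC correction, and 84 to 1067 over single mice left out. All genes lower (34) came to 90, 68 and 115 with median-ratio scaling, quantile normalization and sample weights, 185 with median-ratio scaling and control 1 left out, 12 without CKO 4 and 6, 94 with the correction, and 18 to 69 over single mice left out. Among the named genes that were refitted under every alternative, those that reversed were Col1a1 (0.0268 without control 1), Col1a2 (-0.06296 with median-ratio scaling, -0.08851 with the correction) and Col4a1 (-0.02151 and -0.05271). Collagens outside that rule also changed sign: Col2a1, Col11a1 and Col11a2 without control 1, Col5a3 and Col18a1 with median-ratio scaling, quantile normalization or the correction, Col7a1 and Col10a1 with the last 2 of these, Col27a1 with the correction, Col2a1 and Col7a1 with median-ratio scaling and control 1 left out, and Col2a1, Col11a2, Col12a1 and Col27a1 without CKO 4 and 6. The other alternatives were not checked for these genes. Col8a1 passed in 14 of 23 alternatives (adjusted P 0.00183 to 0.0876) and Col24a1 in 4 of 22 (adjusted P 0.00579 to 0.193). The causes were not tested. Reads per library are unknown, which limits the genes below 1 FPKM most.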
